A study of Mus musculus with 2 samples.

Results

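In whole liver of adult mice, 10 genes of Wnt and R-spondin signalling that are known for their part in liver zonation were examined for GATA4 occupied sites. The genes were Wnt2, Wnt9b, Rspo3, Lgr4, Lgr5, Lrp5, Lrp6, Fzd4, Axin2 and Tbx3. They were chosen by name, with earlier results of these data known. A site was counted at a gene when its midpoint lay in the gene body or within 50 kb of it, with gene bodies taken from GENCODE M1 on mm9. Of 4409 sites found by both SPP and MACS2, 2 programs that search sequencing reads for peaks, 16 lay at 5 of the 10 genes.

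GATA4, a zinc finger transcription factor that binds the DNA motif WGATAR (W is A or T, R is A or G), was measured by ChIP-seq, in which an antibody pulls down the DNA fragments that a protein holds. The ChIP sample was liver of mice of the strain C57BL/6 x Sv129 at a postnatal age of 2 to 3 months, with GATA4 C-20 as the antibody (sc-1237 of Santa Cruz). The input DNA was liver of the same strain and age with no antibody, and no altered allele and no treatment is given for either sample. The labels give that age, while the paper's methods give a range that starts and ends later. By the paper, each replicate joined livers of more than 1 mouse. The peak lists hold both biological replicates as 1 set, so the values below have no replicate error and no test was made. Sites are given by their number in the common list, whose basis is not stated in the files, because the score of every peak is 1000. The lists hold positions only, so the tissue could not be checked against marker genes, and sites held in hepatocytes and in endothelial cells of the whole liver cannot be told apart. In the paper, excision of Gata4 in hepatocytes removed nearly all GATA4 from the sites examined at factor X, FOG1, HNF4α and HNF6. None of those genes is a member.

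Wnt proteins are secreted signals that bind a Frizzled receptor together with the co-receptor LRP5 or LRP6, which stops the breakdown of β-catenin and lets it act with TCF/LEF factors on target genes. R-spondins bind LGR4 or LGR5 and thereby keep Wnt receptors at the cell surface. In the liver lobule, endothelial cells of the central vein release WNT2, WNT9B and RSPO3, and the hepatocytes around that vein show the pericentral programme, of which Axin2, Tbx3 and Lgr5 are marker genes.

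The sites that carry most of the description are shown first, from the plus strand of mm9, with each WGATAR match in capitals. On this strand a match of the minus strand appears as its reverse complement, so that TTATCT stands for AGATAA and CTATCT for AGATAG. Of the secreted ligands, 3 of the 5 Wnt2 sites and both Wnt9b sites are shown. Of the receptors, 2 Fzd4 sites are shown because 1 has the most WGATAR matches and the other has none, and 1 Lrp5 site because it holds a pair of equal words close together. For Fzd4 the central 300 of 320 bases are printed.
Wnt2 site 922, past the gene end, chr6:17892393-17892598: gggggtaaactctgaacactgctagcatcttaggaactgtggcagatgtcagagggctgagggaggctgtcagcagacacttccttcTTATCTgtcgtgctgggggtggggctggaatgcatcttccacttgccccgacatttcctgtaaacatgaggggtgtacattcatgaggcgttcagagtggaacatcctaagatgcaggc
Wnt2 site 1957, intron 4, chr6:17941624-17941742: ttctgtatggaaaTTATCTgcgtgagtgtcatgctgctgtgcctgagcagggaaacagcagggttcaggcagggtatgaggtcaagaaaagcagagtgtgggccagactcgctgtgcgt
Wnt2 site 3549, upstream, chr6:17981846-17981946: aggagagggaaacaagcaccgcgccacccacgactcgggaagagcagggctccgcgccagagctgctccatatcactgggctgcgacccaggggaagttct
Wnt9b site 1482, past the gene end, chr11:103549769-103549872: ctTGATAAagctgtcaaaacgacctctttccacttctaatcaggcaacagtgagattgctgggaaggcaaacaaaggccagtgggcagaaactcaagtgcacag
Wnt9b site 4078, past the gene end, chr11:103550969-103551119: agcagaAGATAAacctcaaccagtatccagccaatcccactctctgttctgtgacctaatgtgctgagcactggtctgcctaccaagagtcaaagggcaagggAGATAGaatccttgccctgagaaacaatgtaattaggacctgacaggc
Lrp5 site 952, upstream, chr19:3709054-3709211: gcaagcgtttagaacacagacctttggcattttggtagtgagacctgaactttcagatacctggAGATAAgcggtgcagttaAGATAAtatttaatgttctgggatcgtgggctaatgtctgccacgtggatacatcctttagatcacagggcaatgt
Fzd4 site 3494, upstream, chr7:96516172-96516471: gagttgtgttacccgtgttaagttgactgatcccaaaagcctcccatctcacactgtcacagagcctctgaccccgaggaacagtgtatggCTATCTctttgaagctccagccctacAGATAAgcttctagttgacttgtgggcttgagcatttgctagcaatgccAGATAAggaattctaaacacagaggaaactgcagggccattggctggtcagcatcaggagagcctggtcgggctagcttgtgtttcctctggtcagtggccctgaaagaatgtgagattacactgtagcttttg
Fzd4 site 3305, upstream, chr7:96551963-96552262: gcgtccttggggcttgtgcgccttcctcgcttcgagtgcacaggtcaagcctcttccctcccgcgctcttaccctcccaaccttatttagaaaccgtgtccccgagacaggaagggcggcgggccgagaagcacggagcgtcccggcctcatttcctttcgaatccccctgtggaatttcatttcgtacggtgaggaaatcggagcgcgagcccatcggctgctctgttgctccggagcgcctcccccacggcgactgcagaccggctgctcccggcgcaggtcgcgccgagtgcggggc

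Both Wnt ligands and all 3 receptors had common sites, and the R-spondin, its LGR receptors and the 2 target genes had 0. Wnt2 had 5 sites, Lrp5 had 4, Fzd4 had 3, and Wnt9b and Lrp6 had 2 each. Over all 22380 protein-coding genes of the annotation, 27.7% had a common site within the same reach. The members' 5 of 10 stand beside that share as a count only. The genes were picked by name with earlier results of these data known, so the 2 shares cannot be compared as a test. A single site was the most frequent positive count among all genes, at 18.5% of them, and it was found at 0 members. At least 2 sites lay at 9.15% of the protein-coding genes and at 5 members. At least 4 sites lay at 1.05% of the genes, as at Lrp5 and Wnt2, and at least 5 lay at 0.474%, as at Wnt2.

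**Figure D1:**
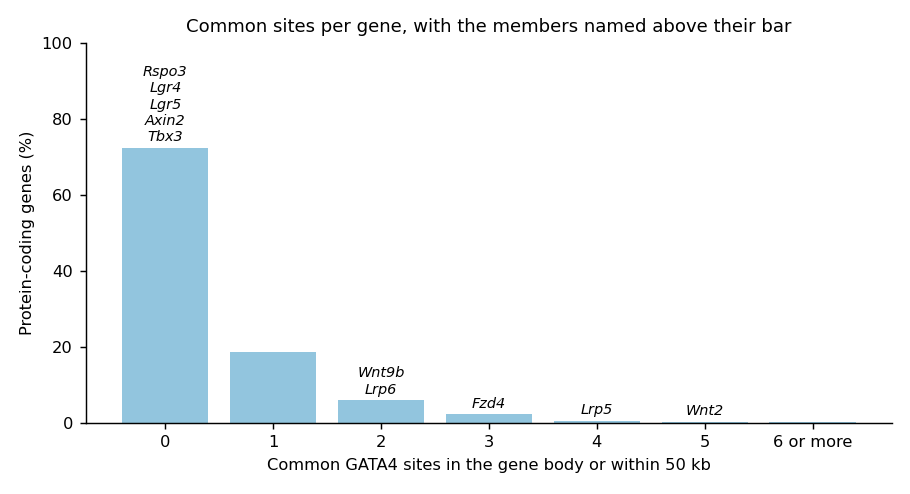
Share of 22380 protein-coding genes (percent, bars) by the number of common GATA4 sites in the gene body or within 50 kb, with the members written above the bar of their count. Rspo3, Lgr4, Lgr5, Axin2 and Tbx3 stand with the 72.3% of genes that had 0 sites, and Wnt2 stands at 5 sites with 0.273% of the genes.

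The windows searched differed in length from gene to gene. They ran from 105.7 kb for Fzd4 to 237.5 kb for Lgr5, since the gene body is part of the window. Among all genes with windows over 100 and up to 120 kb, 23.3% had a site, among those up to 180 kb 32.4% did, and among those up to 250 kb 35.2% did. Of the members, 1 of 2 in the shortest class had sites (Fzd4, not Tbx3), and 2 of 3 in the next (Wnt2 and Wnt9b, not Axin2). The 5 in the longest class were Rspo3, Lgr4, Lgr5, Lrp5 and Lrp6, of which 2 had sites. The member with the longest window, Lgr5, had 0 common sites, and the one with the shortest, Fzd4, had 3.

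Of the 16 sites, 6 were in gene bodies, 6 were upstream of the gene start and 4 were past the gene end. A site in the body was present at 7.67% of all protein-coding genes and at 3 members, Wnt2, Lrp5 and Lrp6. For 12 of the 16 sites the nearest transcription start site (TSS) of a protein-coding transcript was that of the member itself. Those 12 were spread over Wnt2, Lrp5, Lrp6 and Fzd4. In all, 4 sites lay within 2000 bp of a TSS of a member, 2 at Wnt2 and 1 each at Lrp6 and Fzd4. No share over all sites or genes is given for the nearest TSS or the 2000 bp distance. Those counts are a description only.

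**Figure D2:**
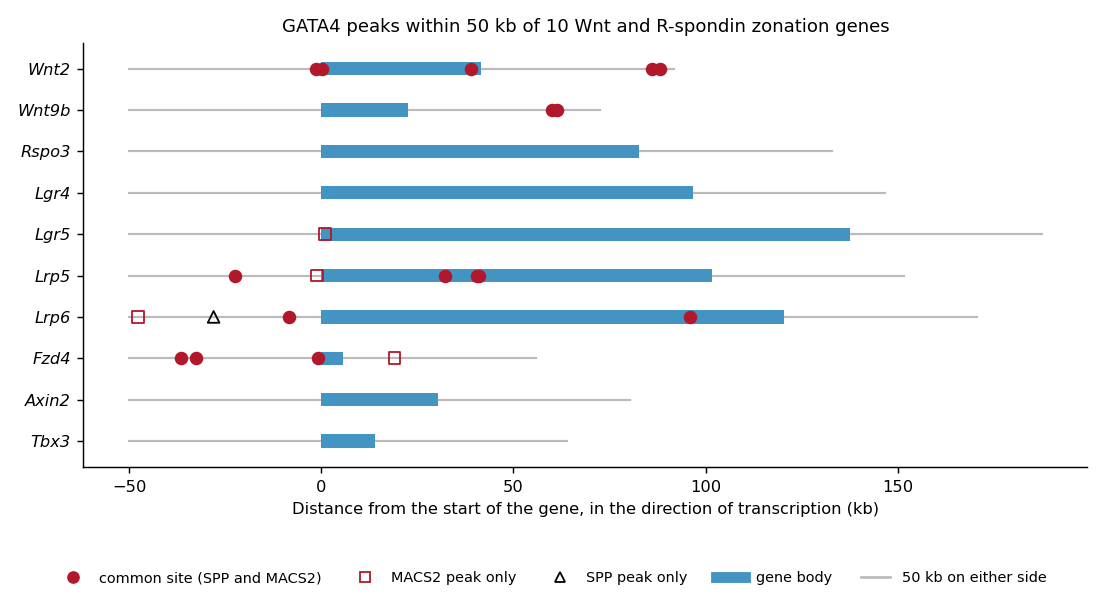
Positions of GATA4 peaks along each of the 10 genes, as distance from the gene start in kb in the direction of transcription. Filled circles are common sites, open squares are MACS2 peaks and open triangles SPP peaks without a partner in the other list, thick bars are gene bodies and thin lines the 50 kb on either side. Wnt2 holds sites at its start, in its body and past its end, while Rspo3, Lgr4, Axin2 and Tbx3 hold no mark of any kind.

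Wnt2 encodes a secreted ligand that endothelial cells of the liver sinusoids and central vein make. The gene lies at chr6:17938940-17980585 on the minus strand. Its 5 sites formed 3 places: the gene start, intron 4 of 5 exons, and a pair beyond the gene end. Site 3939 (chr6:17980369-17980487) lay in exon 1 with its midpoint 157 bp inside the gene, and site 3549 (chr6:17981846-17981946) lay 1311 bp upstream. Their midpoints were 1468 bp apart, and both were rich in G and C, at 66.4% and 64.4%. Site 3939 held 1 TGATAA on the plus strand, and site 3549 held 0 WGATAR.

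The 3 other sites of Wnt2 were far from its start. Site 1957 lay 38902 bp into the gene, and sites 2001 and 922 lay 44498 and 46445 bp past its end, 1947 bp apart. Site 922 was in intron 15 of St7, a neighbouring gene on the plus strand, while the nearest protein-coding TSS was still that of Wnt2. Each of the 3 held 1 WGATAR match. In site 2001 (chr6:17894389-17894495) the AGATAG is followed by a long run of gt repeats. Of the 48-base words touching that site, 87.7% had a single place in the genome, while all words of the other 4 Wnt2 sites did. Across the window of Wnt2 as a whole, 91.35% of the 48-base words were unique, the lowest share among the members.

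WNT9B is the other ligand of central vein endothelium, and its gene lies at chr11:103588678-103611135 on the minus strand. Both of its sites lay past the gene end, at 37634 and 38858 bp, with midpoints 1224 bp apart. They fell in introns 1 and 2 of Gosr2, which encodes a SNARE protein of Golgi traffic. The nearest protein-coding TSS was that of Gosr2, at 7964 and 9188 bp. Wnt9b is thus the member whose sites were all closer to the start of another gene. Site 4078 held AGATAA and AGATAG on the plus strand 97 bp apart, and site 1482 held 1 TGATAA and a TCF/LEF word, CTTTGTT on the minus strand.

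Rspo3 encodes the R-spondin that central vein endothelium makes, and Lgr4 and Lgr5 encode receptors for R-spondins. None of the 3 genes had a common site or an SPP peak within 50 kb. The nearest common site to Rspo3 lay 101548 bp past its end, in intron 3 of Rnf146, whose product is a ubiquitin ligase that acts on axin. The nearest to Lgr5 lay 192686 bp upstream, where Tspan8 had the nearest TSS. Lgr4 was the most remote of all members, with its nearest common site 3418827 bp past the gene end in Fmn1 and its nearest MACS2 peak at 2295178 bp.

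Lgr5 was the member whose only peak was in the MACS2 list alone. That peak, number 4029 of 5867, was 692 bp wide at chr10:115023488-115024179, in intron 1 of 18 exons. Its midpoint was 1003 bp from the gene start and 716 bp from the nearest Lgr5 TSS. It held 1 AGATAA on the plus strand, and TCF/LEF words on both strands, CTTTGTT and CTTTGAA. With it, MACS2 peaks lay at 6 members, against 33.9% of all protein-coding genes, and SPP peaks at 5 members, against 29.2%.

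LRP5 and LRP6 are the co-receptors that take up the Wnt signal together with Frizzled proteins. Lrp5 (chr19:3584825-3686564, minus strand) had 4 sites, 3 of them in its introns. Sites 4395 and 1601 lay in intron 5 of 23 exons, 41083 and 40606 bp from the gene start. Their midpoints were 477 bp apart, the closest pair among the members, and both fell under MACS2 peak 713. Site 1104 lay in intron 2, at 32300 bp.

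The remaining site of Lrp5, number 952, lay 22568 bp upstream of it. It was in intron 1 of 1810055G02Rik and 799 bp from the TSS of that gene, which runs on the opposite strand. The paper lists this peak under 1810055G02Rik, among genes with lower expression in hepatocytes after excision of Gata4 and Gata6. Site 952 held AGATAA on the plus strand at 2 positions 18 bp apart, the closest spacing among the 16 sites. The 3 intronic sites held 1 or 2 WGATAR matches each, and sites 1601 and 1104 also held the ETS word CAGGAAG.

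Lrp6 (chr6:134396494-134516983, minus strand) had 2 common sites 104329 bp apart. Site 480, the lowest number of the 16, lay upstream of the gene and outside protein-coding transcripts. Its overlapping MACS2 peak had number 1032. Site 1769 (chr6:134420992-134421167) lay in intron 12, 95904 bp from the gene start, and 232 bp from the TSS of a short protein-coding transcript of Lrp6. It held TGATAA on the minus strand, the TCF/LEF word CTTTGAA and the ETS word CAGGAAG.

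Fzd4 encodes a Frizzled receptor known for its part in blood vessels, and is a short gene of 5745 bp at chr7:96552876-96558620 on the plus strand. All 3 of its common sites were upstream, at 36555, 32537 and 764 bp. Each also lay within a transcript of the neighbouring gene Tmem135 that is not annotated as protein-coding. The farthest, site 3494, held 3 WGATAR matches, the most among the 16 sites, with starts 26 and 49 bp apart. Its nearest protein-coding TSS was that of Tmem135. Site 3287 (chr7:96520289-96520389) held AGATAA and AGATAG on opposite strands, 37 bp apart. Site 3305, closest to the gene, held neither WGATAR nor the shorter WGATA or GATAR, had 34 CpG dinucleotides and was 66.25% G and C.

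Axin2, whose product is a scaffold of the complex that breaks down β-catenin, and Tbx3, a T-box transcription factor gene, are targets of Wnt signalling in pericentral hepatocytes. Neither had a peak of any list within 50 kb. Their nearest common sites were nevertheless sites for which they had the nearest protein-coding TSS. The site near Axin2 was number 772, 61106 bp past its end, 414 bp wide, with 0 WGATAR and 60.6% G and C. Its letters look like those of a ribosomal RNA gene, which is a doubt about this site as a place of GATA4. That was not tested, and 98.7% of its 48-base words had a single place in the assembly. The site near Tbx3 was number 997 (chr5:120025172-120025366), 95409 bp upstream, and held TGATAA on the plus and AGATAA on the minus strand. It also held the TCF/LEF word CTTTGAT on the minus strand, 4 bp from the midpoint.

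These 2 sites lie beyond the reach that was set. The farthest site inside it was Wnt2 site 922 at 46445 bp, and the nearest outside it was the Axin2 site at 61106 bp. With a reach of 100 kb, Axin2 had 2 sites, the doubtful number 772 and number 3670 at 91823 bp. Tbx3 then had 1 site, Lrp6 had 3 and Fzd4 had 4, with the added sites at 97710 bp from Lrp6 and 77457 bp from Fzd4. Rspo3, Lgr4 and Lgr5 still had 0.

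All 16 common sites were fully covered by a MACS2 peak. Some overlap was given, since the common list holds only sites found by both programs, and the MACS2 peaks were wider. The 16 sites were spread over the common list. Of them, 3 had numbers up to 1103, 6 had numbers from 1104 to 2205, 2 from 2206 to 3307 and 5 from 3308 on. The lowest numbers were 480 at Lrp6, 922 at Wnt2, 952 at Lrp5 and 1104 at Lrp5, and the highest was 4395, also at Lrp5. Their median number was 1979, beside 2205 over all common sites. All 3 Fzd4 sites had numbers between 3287 and 3494, and the Lrp6 sites had 480 and 1769. 

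**Figure D3:**
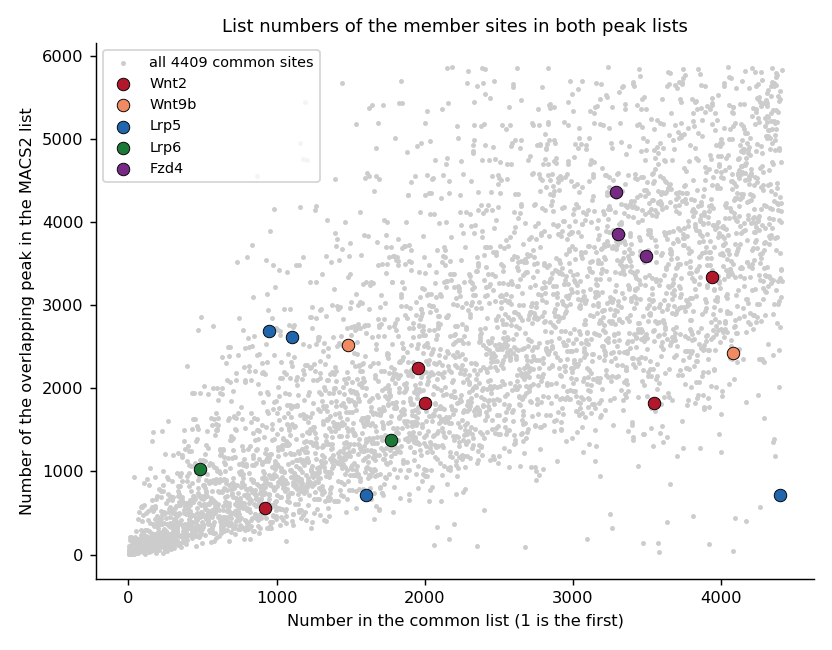
Number of each site in the common list (horizontal axis) against the number of its overlapping peak in the MACS2 list (vertical axis), with all 4409 common sites in grey and the 16 member sites coloured by gene. Lrp6 site 480 sits at MACS2 number 1032, the 3 Fzd4 sites sit at 3593 to 4360, and Lrp5 site 4395 sits low at 713, the peak it shares with site 1601.

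Peaks in 1 list alone added 4 MACS2 peaks and 1 SPP peak, and most of them also lay at genes with common sites. Beside the Lgr5 peak, MACS2 alone found a peak 1125 bp upstream of Lrp5 with 2 WGATAR matches. It found another 47771 bp upstream of Lrp6, in intron 3 of Mansc1, with 4 matches, and another 13313 bp past the end of Fzd4, with 3. In that order the peaks were 623, 820 and 420 bp wide, beside a median of 167 bp for the 16 common sites. Their matches were thus counted over longer stretches. SPP alone found a peak 28022 bp upstream of Lrp6, with 0 WGATAR matches and 2 ETS words. The start of Lrp5 had a peak of MACS2 only, whereas the starts of Wnt2 and Fzd4 had common sites.

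WGATAR was present in 14 of the 16 member sites, which is 87.5%, and in 82.9% of all common sites. The search was for AGATAA and AGATAG and for TGATAA and TGATAG on both strands. The 2 sites without a match, Wnt2 site 3549 and Fzd4 site 3305, were both upstream of a gene start and within 2000 bp of it. When equal stretches 5000 bp further along the chromosome were searched, 5 of 16 held a match on the right and 3 of 16 on the left. Over all common sites those shares were 31.9% and 31.4%.

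The member sites held 21 matches in all. AGATAA made up 12 of them, 57.1%, beside 44.6% of the matches in all common sites. AGATAG made up 5, TGATAA 3 and TGATAG 1, which is 14.3% for TGATAA beside 26.8% over all sites. Of the 21, 6 lay within 20 bp of the midpoint of their site, where sites were 101 to 320 bp wide.

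**Figure D4:**
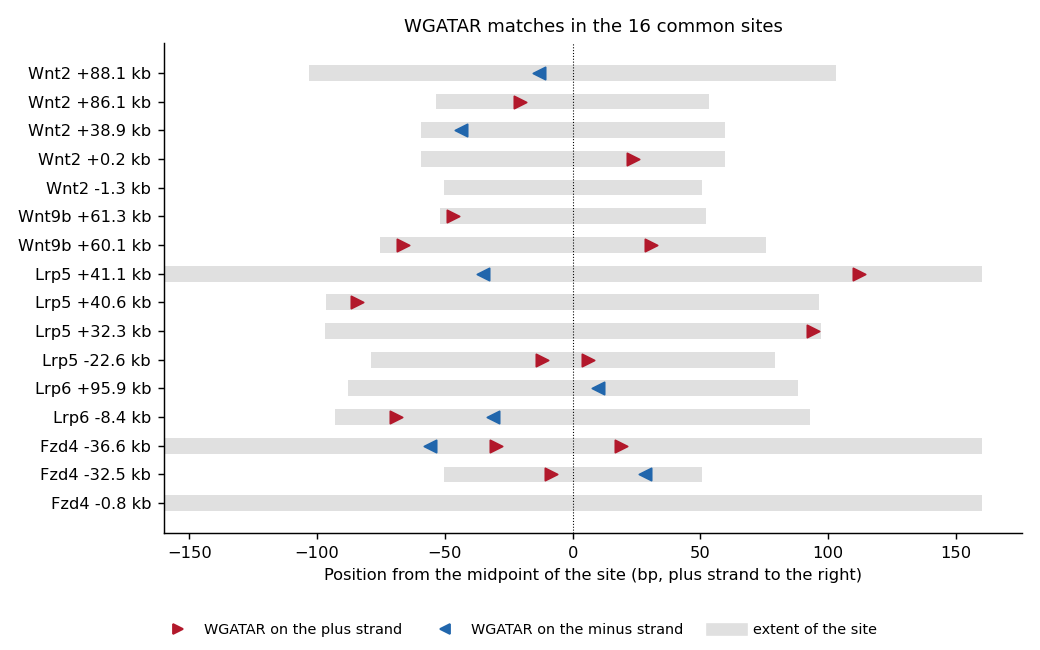
Positions of WGATAR matches in the 16 common sites, in bp from the midpoint of the site, with each site labelled by gene and distance from the gene start in kb. Grey bars are the extent of the site and triangles point in the direction of the strand. The Fzd4 site 36555 bp upstream holds 3 matches, and the rows of the Wnt2 site 1311 bp upstream and of the Fzd4 site 764 bp upstream are empty.

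Words of other factors were searched on both strands, and their shares are given as a description with no test. TCF/LEF words (CTTTGAA or CTTTGAT and CTTTGTA or CTTTGTT) were in 3 sites, 18.8%, at Wnt9b, Lrp6 and Fzd4, beside 17.0% of all sites. ETS words (CAGGAAG or CCGGAAG) were in 4 sites, 25.0%, beside 26.8%. Forkhead words (TGTTTAC or TATTTAC) were in 3 sites, 18.8%, beside 9.03%, and HNF4 words (CAAAGTCCA or CAAAGGTCA) were in 0 sites, beside 2.59%. HNF4 words share the letters CAAAG with the reverse complement of TCF/LEF words, so a base may serve in both.

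The number of WGATAR matches in the windows is given as a description, since windows differ in length. WGATAR occurred 517 times in the window of Rspo3, 485 times at Lgr4 and 608 times at Lgr5, which is 2.83, 2.47 and 2.56 per kb. It occurred 220 times at Axin2 and 216 times at Tbx3, or 1.69 and 1.89 per kb. At the genes with common sites the values per kb were 3.12 for Wnt2, 1.67 for Wnt9b, 1.64 for Lrp5, 2.4 for Lrp6 and 2.07 for Fzd4. Unique 48-base words made up 92.5% to 97.5% of the windows of the 5 genes without common sites, and 91.35% to 98.5% of those with them. The part of either measure in the counts of sites was not tested.

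The other genes of the pathway were counted by role with the same reach, to place the members among their partners. Of 76 signalling genes, which leave out the members and the zonated hepatocyte genes, 19 had a common site, 25.0%, beside 27.7% of all protein-coding genes. They had 0.37 sites per gene on average, the members had 1.6 and all protein-coding genes 0.42. These means are a description, since the genes were listed with earlier results of these data known and their windows differ in length. By role, the shares ran from 0 of 6 to 18.8% among ligands, receptors and antagonists, and were 54.5% and 41.7% among the intracellular parts of the pathway.

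Among the other Wnt ligands and the genes for their secretion, 3 of 19 had a site, and these were Wnt3a, Wnt8a and Wnt5b with 1 site each. In none of the 3 was the nearest TSS that of the Wnt gene. The other R-spondins, Lgr6 and the ligases Znrf3 and Rnf43, which remove Wnt receptors, had sites at 0 of 6 genes. Like Rspo3, Lgr4 and Lgr5, they were thus among the 72.3% of all protein-coding genes that had 0 common sites. Of these R-spondin genes, Lgr5 had a peak in the MACS2 list alone. Among Frizzled and other Wnt receptors, 2 of 12 had a site: Ryk, a receptor-like kinase, and Fzd7.

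Of the destruction complex and Dishevelled genes, 6 of 11 had a site. Dvl2, which passes on the receptor signal, had 3 sites, all of them nearer to the TSS of another gene. Csnk1a1, a kinase that marks β-catenin for breakdown, had 2, and for 1 of them the Csnk1a1 TSS was the nearest. Ctnnb1, the gene of β-catenin itself, had 2, the lower-numbered of them 2730, which lay upstream of the gene, and for both sites the nearest TSS was its own. Of the nuclear effectors, 5 of 12 had a site, among them Tcf7l1 with 3 and Bcl9l and Tle2 with 2 each. The nearest TSS was the gene's own for 1 site of Tcf7l1, 1 of Bcl9l and 0 of Tle2. Of the antagonists, 3 of 16 had a site: Sost with 2, and Nkd2 and Dkk3 with 1 each. The nearest TSS was the gene's own for both Sost sites and the Dkk3 site, and that of another gene for the Nkd2 site.

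Common sites lay at genes of both hepatocyte zones, which does not tell where in the lobule GATA4 was bound. The shares stand beside 27.7% of all protein-coding genes. In each zone, 2 genes had a site whose nearest TSS was their own. Of 10 pericentral genes, 4 had a site. Slc1a2, a glutamate transporter, had 2, and Lect2 and Cyp2e1 had 1 each. Of 10 periportal genes, 5 had a site, with 3 at Cps1, which starts the urea cycle, and 1 each at Hal and Sds, enzymes that break down histidine and serine.

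**Figure D5:**
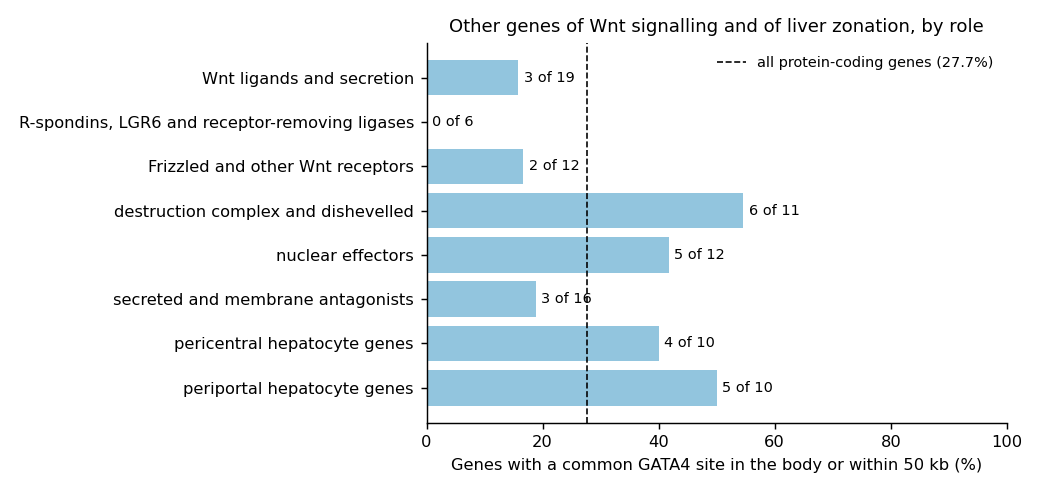
Share of the other pathway and zonation genes with a common GATA4 site in the body or within 50 kb (percent, bars), by role, with the number of genes beside each bar. The dashed line is the 27.7% of all protein-coding genes, and the bars run from 0 of 6 for the R-spondin group to 6 of 11 for the destruction complex and Dishevelled.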

How the data were processed

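GATA4 ChIP-seq and input DNA of adult mouse liver were sequenced, and the labels give 1 sample of each. Per the labels and the study's methods, the authors aligned reads to mm9 with Bowtie 0.12.7, retained reads that mapped to a unique place, searched both replicates for peaks over input with MACS2 2.0.10 and an adapted SPP, set thresholds by the irreproducible discovery rate, and intersected both lists with bedtools 2.16.1, keeping the SPP coordinates. The deposited score of every peak is 1000, a display value, so only positions and list numbers were used. No read counts are in the lists, so the depth behind a single peak is unknown.

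The 3 lists hold 4409 common sites, 4811 SPP peaks and 5867 MACS2 peaks. Positions were made 1-based, and midpoints were placed on the 22380 protein-coding gene records of GENCODE M1 (same build, NCBI Build 37). Peaks sharing 1 bp overlapped. Motifs were matched exactly, and the uniqueness of all 48-base words was counted over the genome. With 1 joined sample there was no test. The scripts were tested on simulated data. Named were all 10 members and, in each role, the 3 other genes with the most sites, ties going to the lowest number. The members, gene lists and motifs were chosen with earlier results of these data known. Alternatives were the reach, the list, the gene model, peak overlap and the sequence scanned. Python 3.11.15, numpy 2.4.6, pandas 2.3.3, numba 0.67.0, pysam 0.24.0, samtools 1.23.1 and matplotlib 3.10.9 were used.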

Additional observations from a re-analysis of the deposited data

How the results depend on the processing

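Of 33 alternatives, 23 gave values within 1.5 times those reported and 10 did not. The tally joins values of the members with shares of all protein-coding genes, so it does not measure how stable the member counts are. Among the 23 was the cover of common sites by MACS2 peaks, where some overlap is given by how the common list was made. With the gene body alone, 3 members had a site and 6 sites remained, beside 7.67% of protein-coding genes. With a reach of 10 kb, 9 sites lay at 4 members, 7 of those sites held WGATAR, and 13.7% of protein-coding genes had a site. At that reach Wnt9b had 0 sites. The upper part of the common list by number, taken down to its middle, left 9 sites and 16% of protein-coding genes, with 0 sites at Fzd4. Windows 5000 bp to the right and left of the sites held WGATAR in 5 and 3 of 16. These windows count among the 10, although they lie off the sites by design. With a reach of 100 kb, 21 sites lay at 7 members, beside 40% of protein-coding genes. No paired analysis was possible because the labels give 1 ChIP and 1 input sample and the peaks were called on both replicates together. A gene without a site in these lists may hold one under the thresholds that were set, and the lists do not tell how far under.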

Other observations

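Glul, the glutamine synthetase gene of the hepatocytes next to the central vein, had 0 common sites and 1 MACS2 peak within 50 kb. Arg1, the arginase gene of the periportal urea cycle, likewise had 0 common sites and 1 MACS2 peak. Both were singled out after their values were seen. Cyp1a2, a pericentral cytochrome gene that was also chosen after its value was seen, had 1 common site, upstream of its start. That site was nearer to the TSS of another gene. Of the 10 pericentral genes listed, 6 had a MACS2 peak and 4 a common site, and of the 10 periportal genes, 7 and 5. Over all protein-coding genes the shares were 33.9% and 27.7%.

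In the 2000 bp around the gene start, WGATAR occurred 6 times at Wnt2, the most among the members, and 0 times at Wnt9b. The other members had 1 to 3 matches there. Wnt2 had 2 common sites near its start, of which site 3939 held 1 WGATAR and site 3549 held 0. Fzd4, with 2 matches around its start, had site 3305 there, which also held 0. Axin2, Rspo3 and Lgr5 had 3 matches each and 0 common sites. Lrp6 also had 3 matches, and it had 2 common sites, both farther than 2000 bp from its gene start. A link between matches at the start and sites was not tested.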
